A study of Mus musculus with 18 samples.

Results

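The unfolded protein response genes described here are 10 genes chosen by symbol as targets of the transcription factors ATF6 and XBP1: Hspa5, Hsp90b1, Hyou1, Dnajb9, Sdf2l1, Pdia4, Creld2, Manf, Herpud1 and Xbp1 itself. All 10 were found once each among the 55401 gene identifiers of the libraries, and all 10 passed the filter on low values in every comparison. The libraries came from C57BL/6N mice aged 7 weeks that received either RECTAS, a small molecule known as a splicing modifier, at 100 mg/kg in 0.5% carboxymethyl cellulose (CMC), or 0.5% CMC alone as the vehicle. Both were given by mouth in 2 doses 4 h apart, and the 3 tissues, colon, lung and liver, were collected at 8 h from the first dose. Each tissue had 3 vehicle and 3 RECTAS libraries of messenger RNA, 18 in all. The labels name no genetic change, and they say neither if each library of a group is from a mouse of its own nor if 1 mouse gave all 3 tissues. The p-values below therefore measure the spread between these libraries, which may be technical in part.

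When proteins fail to fold in the endoplasmic reticulum (ER), 3 membrane sensors respond: IRE1, PERK and ATF6. IRE1 removes a short intron from Xbp1 messenger RNA so that active XBP1 is made, PERK slows translation and favours ATF4, and ATF6 is cut in the Golgi to release a transcription factor. ATF6 and XBP1 raise genes for ER chaperones, for disulfide exchange and for ER-associated degradation (ERAD), which returns misfolded proteins to the cytosol. Liver, a secretory organ, is known for strong use of this pathway. Values per gene do not separate the spliced from the unspliced form of Xbp1, so IRE1 activity was not measured here.

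In the GENCODE M21 annotation of GRCm38 all 10 are protein-coding genes. On the plus strand lie Hspa5 (ENSMUSG00000026864) at chr2:34771970-34777547, Hyou1 (ENSMUSG00000032115) at chr9:44379490-44392369 and Creld2 (ENSMUSG00000023272) at chr15:88819646-88826683, as well as Herpud1 (ENSMUSG00000031770) at chr8:94386438-94395377 and Xbp1 (ENSMUSG00000020484) at chr11:5520659-5525893. On the minus strand lie Hsp90b1 (ENSMUSG00000020048) at chr10:86690209-86705509, Dnajb9 (ENSMUSG00000014905) at chr12:44205559-44210326 and Sdf2l1 (ENSMUSG00000022769) at chr16:17130138-17132383, as well as Pdia4 (ENSMUSG00000025823) at chr6:47796141-47813430 and Manf (ENSMUSG00000032575) at chr9:106838312-106891979. On its own strand Manf overlaps Rbm15b, Hsp90b1 overlaps Gm15344 and Gm25745, and Pdia4 overlaps Mir704. Reads could be divided between such genes in the authors' counting, and the values of Manf, Hsp90b1 and Pdia4 carry that limit.

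ATF6 and XBP1 act through short promoter elements, and the promoters that carry an exact copy are shown because the letters can be read without the expression values. A match is a description of the sequence, not a measured binding site. RefSeq windows on GRCm38.p6, from 250 bases before to 50 bases after the annotated start, were present for 8 of the 10 members and not for Hyou1 and Manf. On both strands 3 elements were searched: the ER stress response element ERSE (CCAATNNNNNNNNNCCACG), ERSE-II (ATTGGNCCACG) and the core of the unfolded protein response element UPRE (TGACGTGG). ERSE occurred in 39 of 32851 windows (0.119%) and in 3 of the 8 member windows, those of Hspa5, Hsp90b1 and Creld2. ERSE-II occurred in 12 windows (0.0365%) and in 1 member window, that of Herpud1. The UPRE core occurred in 222 windows (0.676%) and in 0 member windows. No match means only that these letters were not in this window. The 250 bases before the start of these 4 genes read as follows, 5′ to 3′ on the gene's own strand, with the matches in capitals.
Hspa5, chr2:34771840-34772089, plus strand: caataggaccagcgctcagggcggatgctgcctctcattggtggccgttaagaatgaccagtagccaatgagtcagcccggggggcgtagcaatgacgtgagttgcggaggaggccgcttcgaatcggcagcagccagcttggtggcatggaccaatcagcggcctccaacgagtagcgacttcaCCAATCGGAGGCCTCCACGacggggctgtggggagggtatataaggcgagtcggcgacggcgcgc
Hsp90b1, chr10:86705445-86705694, minus strand: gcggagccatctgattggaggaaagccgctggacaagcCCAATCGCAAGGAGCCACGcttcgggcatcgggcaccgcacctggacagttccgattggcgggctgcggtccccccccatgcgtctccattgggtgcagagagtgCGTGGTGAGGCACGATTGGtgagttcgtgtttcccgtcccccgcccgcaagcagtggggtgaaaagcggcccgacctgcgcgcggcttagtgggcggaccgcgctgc
Creld2, chr15:88819396-88819645, plus strand: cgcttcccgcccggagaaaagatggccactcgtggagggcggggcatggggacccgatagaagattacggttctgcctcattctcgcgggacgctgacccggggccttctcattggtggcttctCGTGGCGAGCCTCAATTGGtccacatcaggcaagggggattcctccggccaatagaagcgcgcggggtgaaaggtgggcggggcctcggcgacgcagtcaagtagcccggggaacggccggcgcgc
Herpud1, chr8:94386179-94386428, plus strand: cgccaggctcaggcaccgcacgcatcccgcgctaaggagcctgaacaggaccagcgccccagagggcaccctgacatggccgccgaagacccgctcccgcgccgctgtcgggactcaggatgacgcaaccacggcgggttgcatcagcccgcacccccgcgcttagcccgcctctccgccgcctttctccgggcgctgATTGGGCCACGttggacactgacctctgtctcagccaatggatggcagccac
The Hspa5 match lay at −65 to −47 from the RefSeq start. For Hspa5, Hsp90b1 and Dnajb9 the GENCODE gene start lies further upstream than the RefSeq start. The whole Dnajb9 window, chr12:44210019-44210318, lies within the GENCODE gene and holds no sequence before that gene's start. Hsp90b1 held 2 matches, at −212 to −194 in forward and at −107 to −89 in reverse orientation. The Creld2 match lay at −126 to −108 in reverse orientation, and the Herpud1 match lay close to the start, at −52 to −42. No match overlapped another.

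**Figure D1:**
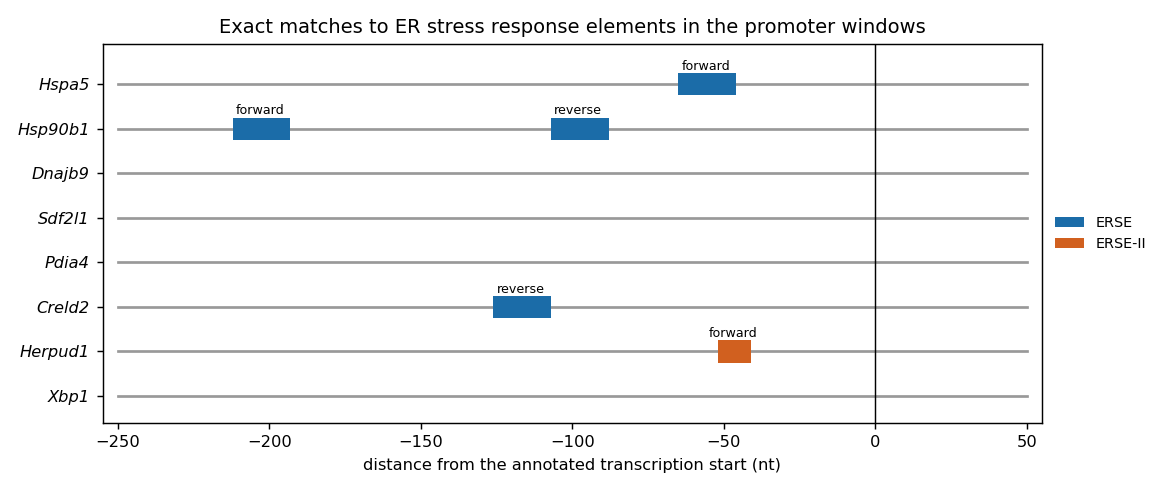
Positions of exact matches to ERSE (blue) and ERSE-II (orange) in the promoter windows of the 8 members that have one; the horizontal axis is the distance from the annotated start in nucleotides, and each grey line is 1 window. Hspa5, Hsp90b1 and Creld2 carry ERSE, Herpud1 carries ERSE-II, and the windows of Dnajb9, Sdf2l1, Pdia4 and Xbp1 carry no match.

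Expression was given as TPM, which scales each gene by its length and each library to the same total, so levels of different genes can be compared but the read depth behind them is unknown. Genes above 0 numbered 23308 to 23874 per colon library, 24084 to 25227 per lung library and 19836 to 20502 per liver library. Marker genes matched the tissue labels: 8 hepatocyte genes summed to 110948 to 131099 TPM in liver and at most 14.8 TPM in colon, 7 alveolar type 2 genes to 36027 to 44626 TPM in lung, and 7 goblet cell genes to 10708 to 19153 TPM in colon. In lung the hepatocyte sum ranged from 2.19 to 1686 TPM between libraries, with none of the 8 genes at 0 in all 3 libraries of a group. Serpina1c and Cps1 were at 0 in lung RECTAS 1. Pancreatic acinar genes, markers of another organ rich in ER chaperones, summed to at most 1.41 TPM in any library. In bulk tissue, fewer cells of a type and less RNA per cell cannot be told apart. Some liver libraries were extreme for most of these genes. Liver vehicle 1 had the lowest value of the 3 vehicle libraries for all 10 members, and liver RECTAS 3 the lowest of its group for 9. Liver results that vehicle 1 moves are also given without that library.

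The ER chaperones Hspa5 (BiP, the main ER Hsp70) and Hsp90b1 (GRP94, the ER Hsp90) were the most abundant members by mean in all 3 tissues, though in liver the libraries of Hspa5 overlapped those of Herpud1. In vehicle libraries Hsp90b1 averaged 173 ± 15.1 TPM (SD, n = 3) in colon, 326 ± 5.58 TPM in lung and 439 ± 66.0 TPM in liver. Hspa5 averaged 142 ± 17.8 TPM in colon, 216 ± 15.1 TPM in lung and 421 ± 155 TPM in liver. The libraries of the pair did not overlap in lung but did in colon and liver. Xbp1 and Herpud1 followed in lung, at 159 ± 5.81 and 155 ± 12.0 TPM, and these overlapped. In liver Herpud1 came next at 219 ± 34.3 TPM, ahead of Xbp1 at 184 ± 38.9 TPM, whereas in colon Xbp1 (111 ± 13.0 TPM) and Manf (83.5 ± 5.43 TPM) both stood above Herpud1 (65.8 ± 7.22 TPM) without overlap. The least abundant member was Sdf2l1 in colon (18.4 ± 2.87 TPM, overlapping Hyou1) and lung (11.2 ± 0.860 TPM, below every other member) and Dnajb9 in liver (27.0 ± 9.68 TPM, overlapping Sdf2l1). Together the 10 genes took 0.0687% to 0.227% of all TPM in a library.

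**Figure D2:**
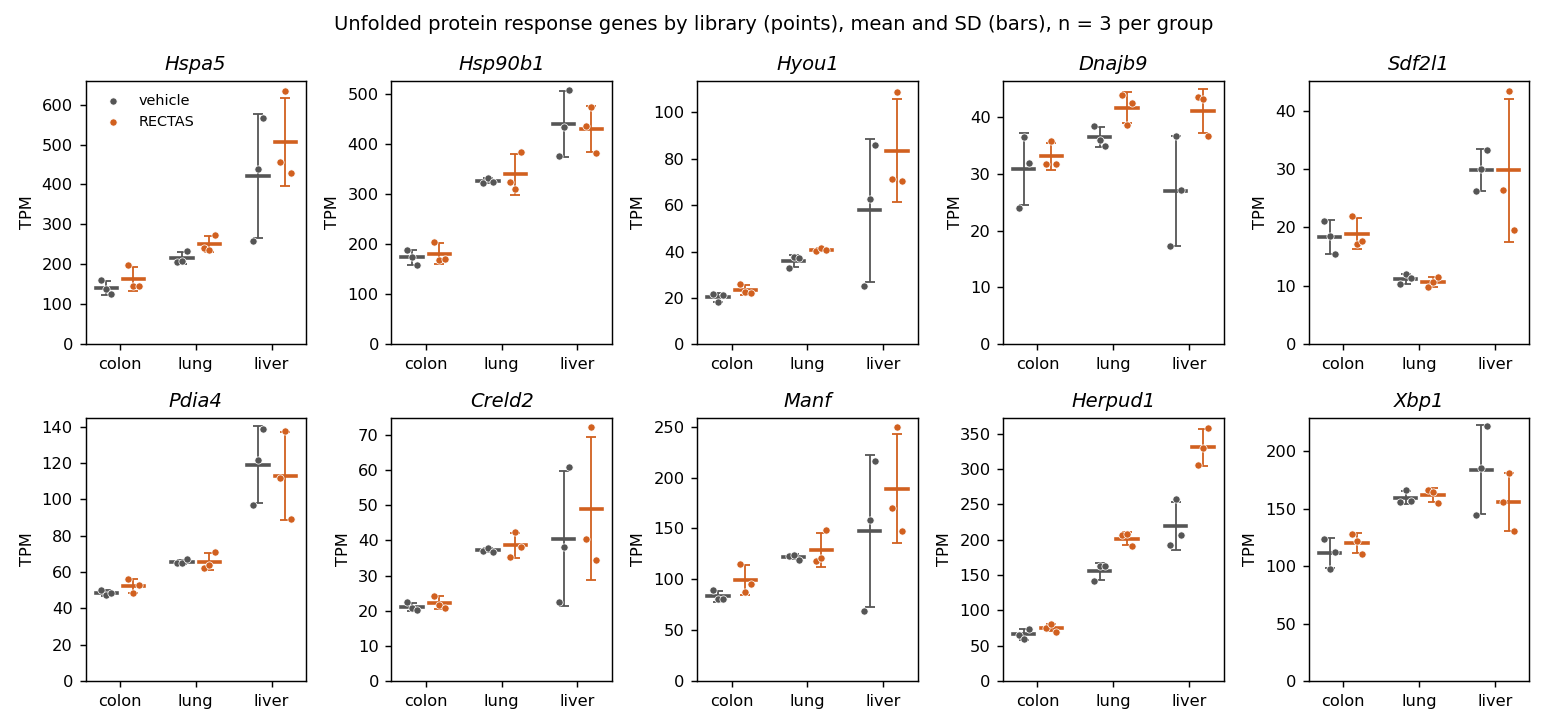
TPM of the 10 genes in each library (points; grey vehicle, orange RECTAS), with the mean and SD of each group of 3 as bars, by tissue; every vertical axis starts at 0. Herpud1 in lung and liver shows RECTAS libraries above all vehicle libraries, while the liver groups of Hspa5, Hyou1, Creld2 and Manf spread widely and overlap.

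Between tissues, most of the list was higher in liver than in colon, against the trend of the genome. In vehicle libraries 8 of 10 members were higher in liver than in colon at an adjusted p below 0.05, and 0 were lower, where 16.1% of the 16715 genes tested were higher and 63.8% lower (limma on log2(TPM + 1), Benjamini-Hochberg). The median difference was 1.03 on the log2 scale for the members and −0.68 for all genes tested. Herpud1, an ERAD component of the ER membrane, had the largest difference: the colon vehicle libraries read 64.6, 59.2 and 73.5 TPM and the liver vehicle libraries 193, 258 and 207 TPM. Every liver library lay above every colon library, 3.34-fold by means, a log2 difference of 1.72 (SE 0.123, adjusted p = 1.16e-06). Hspa5 followed with a log2 difference of 1.498 (SE 0.243, adjusted p = 0.000326), and its liver values of 258, 439 and 566 TPM all exceeded its colon values of 161, 138 and 126 TPM. The protein disulfide isomerase Pdia4 read 50.04, 47.2 and 48.2 TPM in colon and 97.0, 122 and 139 TPM in liver, apart and 2.46-fold higher.

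Also higher in liver were Hsp90b1 (log2 difference 1.33), Hyou1, a large ER Hsp70 and exchange factor for BiP (1.302), Creld2, an ER protein with disulfide isomerase activity (0.80), Xbp1 (0.70) and Sdf2l1, a partner of BiP complexes (0.67). The call on Creld2 was lost when colon vehicle 2, colon vehicle 3 or liver vehicle 2 was left out, with an adjusted p of up to 0.0625. The 2 members not called were Manf, a secreted factor and regulator of BiP (log2 difference 0.67, 95% interval −0.10 to 1.44), and Dnajb9 (ERdj4, a BiP co-chaperone; −0.22, interval −0.78 to 0.33). Without liver vehicle 1, Manf was called too, at 1.14 (adjusted p = 4.94e-05). The Dnajb9 difference had the other sign under quantile normalization (0.443) and median ratio scaling (0.704), where it passed the threshold (adjusted p = 0.0286). That scaling, which divides each library by a size factor taken from the genes present in all libraries and brings the median of all genes near 0, called 10 of 10 members higher in liver, with a median of 1.98 for the members. Of all genes tested it called 12060 of 16356, in either direction.

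Lung stood between. Against colon, 6 members were higher in lung (Herpud1 1.23, Hsp90b1 0.91, Creld2 0.79, Hspa5 0.61, Xbp1 0.52 and Pdia4 0.43 on the log2 scale) and 1 was lower, Sdf2l1, at −0.66 (adjusted p = 0.00126). The background of this comparison was 51.0% of genes higher and 24.7% lower, with a median of 0.35 for all genes and 0.58 for the members. The count of 6 of 10 members higher was thus near the share of all genes. Sdf2l1 read 21.2, 18.6 and 15.4 TPM in colon and 10.3, 12.0 and 11.3 TPM in lung, with no overlap. The calls on Hspa5 and Creld2 ended when any 1 of the 6 libraries was left out, with adjusted p of 0.0504 to 0.127 and 0.05 to 0.0692. Under median ratio scaling Hspa5 (0.194), Pdia4 (0.0222), Creld2 (0.389) and Xbp1 (0.106) were no longer called, and the members' median was 0.16. The background shares given above belong to the fit without this scaling.

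Against liver, 5 members were lower in lung (Sdf2l1 −1.34, Hspa5 −0.89, Pdia4 −0.84, Herpud1 −0.49 and Hsp90b1 −0.42) and 0 were higher. Among all genes 74.5% were higher in lung and 13.5% lower, with a median of 1.10 against −0.45 for the members. Without liver vehicle 1, 8 members were lower in lung, the additional ones being Hyou1 (−1.01), Manf (−0.60) and Xbp1 (−0.35). Under median ratio scaling all 10 members were called lower in lung, Dnajb9 at −0.852 (adjusted p = 0.0113), with a median of −1.82 for the members. The shares of all genes given above belong to the main fit and not to either alternative. The tissue comparisons share vehicle libraries and are not independent of each other.

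**Figure D3:**
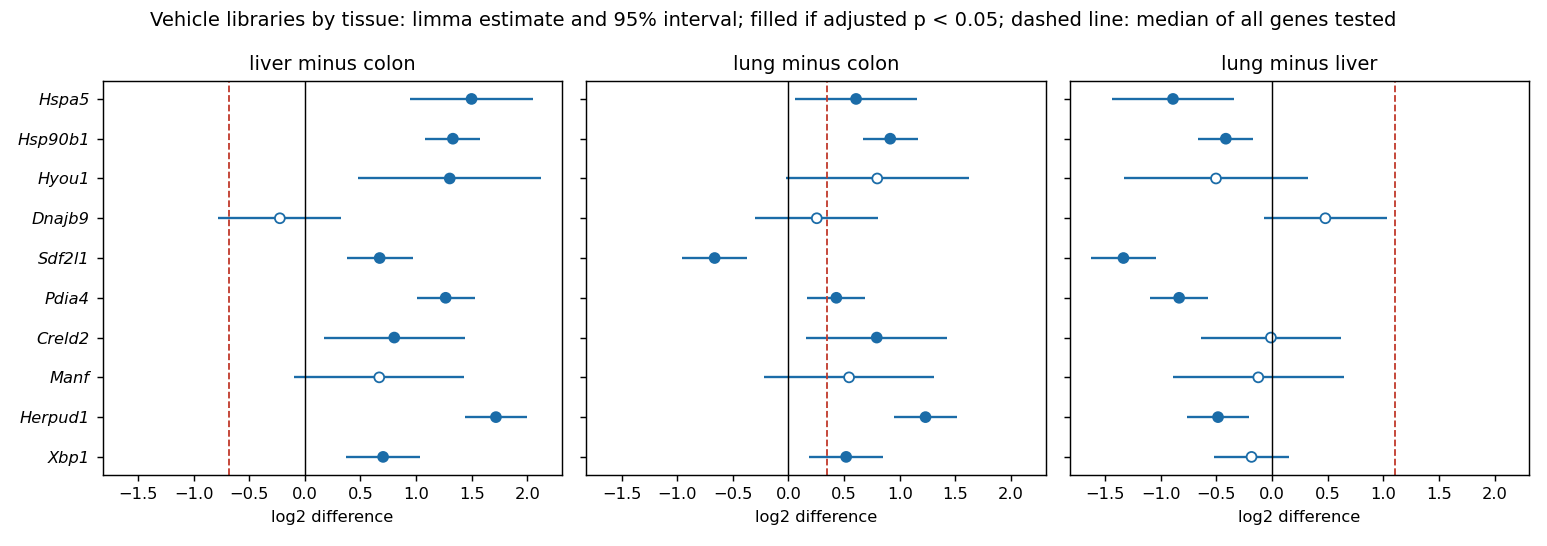
Log2 differences between tissues in vehicle libraries (points, limma estimates on log2(TPM + 1); lines, 95% intervals) for each member, filled where the adjusted p is below 0.05; the dashed line is the median of all genes tested. Herpud1, Hspa5 and Hsp90b1 lie furthest above the genome median of −0.68 in liver minus colon, and 9 of the 10 members lie below 0 in lung minus liver, where the genome median is 1.10.

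With RECTAS, no member passed the threshold in any tissue when each tissue was tested on its own. The count was 0 of 10 in colon, lung and liver by limma at an adjusted p below 0.05, beside 0, 0.00637 and 0.0167 percent of all genes tested. It was also 0 with a robust variance model, which called 6 of 11944 genes in liver. Unadjusted limma p-values below 0.05 were found for 0, 4 and 2 of the 10 members. Among all genes tested they were found for 231 of 14282, 1977 of 15699 and 1388 of 11944. The members' median difference was 0.11 in colon, 0.06 in lung and 0.31 in liver on the log2 scale, beside 0.02, 0.06 and −0.04 for all genes tested. In colon 10 of 10 members had a difference above 0 (57.2% of all genes), in lung 8 (65.4%) and in liver 6 (40.0%). The lung count was 4 under quantile normalization and 5 under median ratio scaling or rescaling without the most abundant genes.

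Herpud1 had the smallest p of the members in lung and liver. It encodes a ubiquitin-like protein that helps to assemble the ERAD machinery. In lung it read 142, 163 and 162 TPM with vehicle and 206, 208 and 191 TPM with RECTAS. In liver it read 193, 258 and 207 TPM with vehicle and 305, 330.3 and 358 TPM with RECTAS. In both tissues every RECTAS library was above every vehicle library. The fold of means was 1.297 in lung, a log2 difference of 0.37 (SE 0.0743, 95% interval 0.20 to 0.55, adjusted p = 0.264), and 1.51 in liver, a log2 difference of 0.60 (SE 0.122, interval 0.31 to 0.89, adjusted p = 0.208). Over all alternatives the adjusted p ran from 0.128 to 0.645 in lung and from 0.0142 to 0.539 in liver, and the liver value passed only in 1 fit of all 18 libraries (adjusted p = 0.0142). In colon Herpud1 read 64.6, 59.2 and 73.5 TPM with vehicle and 75.4, 80.2 and 69.9 TPM with RECTAS, which overlap (log2 difference 0.19, interval −0.05 to 0.44).

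The effect averaged over the 3 tissues, a contrast added after the values were seen, was called for Herpud1 among the members: it rose by 0.39 on the log2 scale (SE 0.0617, 95% interval 0.26 to 0.52, adjusted p = 0.0174), the 14th smallest p of 17537 genes, and its mean was higher with RECTAS in 3 of 3 tissues. Of all genes, 33 or 0.188% were called in this contrast. The adjusted p ranged from 0.00578 to 0.05 over its alternatives and reached 0.05 without colon RECTAS 1, where the call was lost. Without liver vehicle 1 it was 0.36 (adjusted p = 0.0259). No other member was called: the next were Dnajb9 at 0.32 (adjusted p = 0.336), Hyou1 at 0.35 (adjusted p = 0.545) and Hspa5 at 0.24 (adjusted p = 0.570). Without liver vehicle 1 these were 0.224, 0.178 and 0.138.

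Dnajb9, the co-chaperone that hands clients to BiP and is a classical XBP1 target, was the other member whose liver groups did not overlap. It read 17.2, 36.57 and 27.2 TPM with vehicle and 43.4, 43.2 and 36.63 TPM with RECTAS. The highest vehicle and the lowest RECTAS library were thus nearly equal. The log2 difference was 0.65 (interval 0.07 to 1.23, adjusted p = 0.402), and it was 0.37 without liver vehicle 1. In lung it read 38.4, 35.9 and 34.9 TPM with vehicle and 43.9, 38.6 and 42.5 TPM with RECTAS, again without overlap (0.19, adjusted p = 0.364). In colon its groups overlapped.

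Among the chaperones, lung Hspa5 read 206, 208 and 233 TPM with vehicle and 241, 237 and 274 TPM with RECTAS. Lung Hyou1 read 33.1, 37.6 and 37.3 TPM with vehicle and 40.3, 41.6 and 40.4 TPM with RECTAS. Both groups were apart by a narrow gap, with log2 differences of 0.21 and 0.18 (adjusted p = 0.358 and 0.364). With Herpud1 and Dnajb9 this made 4 of 10 members with RECTAS above vehicle in lung and 0 below, where 16.1% of the 15699 genes tested lay above and 3.18% below. Quantile normalization, median ratio scaling and rescaling without the most abundant genes each brought the lung median of all genes to between −0.000536 and 0.0071, and that of the members to between −0.0283 and −0.00283. Lung club cell genes, whose products are among the most abundant lung transcripts, summed to 137699 to 155916 TPM with vehicle and 119093 to 126655 TPM with RECTAS, with none of the 3 genes at 0. These sums were mostly Scgb1a1, at 136561, 132818 and 149107 TPM with vehicle and 121803, 118439 and 114921 TPM with RECTAS. The groups of Scgb3a2 and Cyp2f2 overlapped. Hepatocyte sums in lung were 22.8, 626 and 1686 TPM with vehicle and 2.19, 69.6 and 688 TPM with RECTAS. The part of either in the lung result was not tested.

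In colon 1 member, Hyou1, was apart and above vehicle (21.6, 18.05 and 21.3 TPM against 25.9, 22.4 and 22.2 TPM; log2 difference 0.20), and 0 below, where the background was 3.43% above and 2.01% below. Colon Manf had the largest log2 difference of this tissue, 0.24 (interval −0.04 to 0.51), with 89.7, 80.6 and 80.1 TPM against 115, 87.0 and 95.1 TPM. Colon vehicle 1 and colon RECTAS 1 were each the highest library of their group for 8 of 10 members. These were also the libraries with the highest goblet cell sums of their groups, 16752 TPM against 10708 and 15005, and 19153 TPM against 13105 and 14808. None of the 7 goblet genes was at 0, and goblet cells secrete mucins. The goblet genes did not all follow their sum. Muc2, Clca1 and Agr2 were highest in both libraries, Fcgbp in colon RECTAS 1 only, and Zg16, Tff3 and Spdef in neither. Zg16 read 3150, 3351 and 4502 TPM with vehicle and 4297, 3559 and 5558 TPM with RECTAS. The adipocyte sums of these 2 libraries were the highest of their groups too, at 109 TPM against 86.5 and 59.7, and 154 TPM against 68.6 and 82.6. Colon vehicle 1 also had the highest smooth muscle sum of its group, 3251 TPM against 1254 and 1207, and the lowest colonocyte sum, 12402 TPM against 32151 and 21054. Of the 6 colonocyte genes only Car1 and Krt20 were lowest there. Slc26a3 was highest in that library, at 335 TPM against 322 and 171, and Aqp8, Ceacam1 and Saa1 lay between. Plasma cell sums were 404, 223 and 540 TPM with vehicle and 301, 607 and 237 TPM with RECTAS. For these, colon vehicle 1 and colon RECTAS 1 were not the highest of their groups. The part of these cell types in the colon values was not tested.

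In liver 2 members, Herpud1 and Dnajb9, were apart and above, and 0 below, beside 5.75% of genes above and 13.0% below. The remaining liver differences had wide intervals: Hyou1 0.66 (−0.35 to 1.67), Manf 0.47 (−0.51 to 1.44), Hspa5 0.32 (−0.37 to 1.002) and Creld2 0.30 (−0.62 to 1.23). The other 4 members lay below 0 in liver: Xbp1 at −0.23 (interval −0.65 to 0.19), Pdia4 at −0.09, Sdf2l1 at −0.07 and Hsp90b1 at −0.02. Without liver vehicle 1 the members' median was −0.03 in place of 0.31, Hyou1 was at 0.154, Hspa5 at 0.00, Manf at −0.01 and Creld2 at −0.05, and Herpud1 was at 0.51 (adjusted p = 0.213). The median was 0.07 without liver RECTAS 2, 0.57 without liver vehicle 3 and 0.47 without liver RECTAS 3, and 4 to 9 members were above 0 when any 1 of the 6 libraries was left out. Xbp1 read 144, 186 and 222 TPM with vehicle and 156, 181 and 131 TPM with RECTAS, so its groups overlapped.

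**Figure D4:**
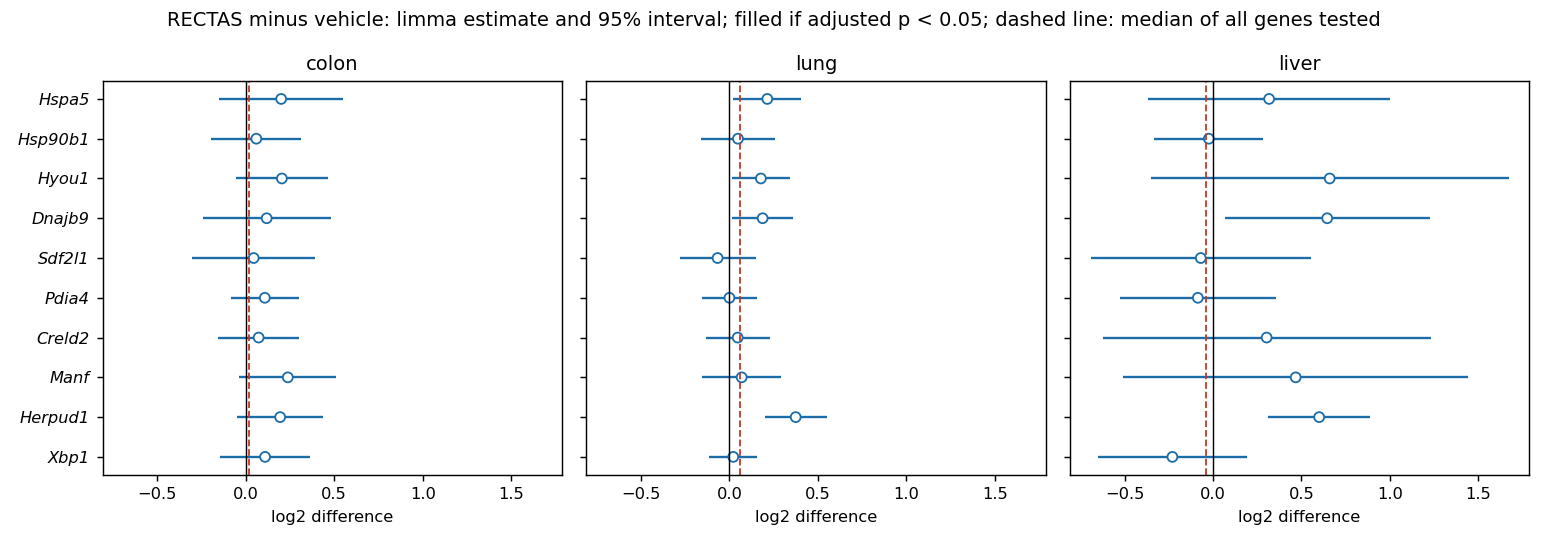
RECTAS minus vehicle within each tissue (points, limma estimates on log2(TPM + 1); lines, 95% intervals) for each member, filled where the adjusted p is below 0.05; the dashed line is the median of all genes tested. No point is filled, and the intervals of Herpud1 in lung (0.20 to 0.55) and liver (0.31 to 0.89) lie furthest from 0 relative to their width.

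Whether the RECTAS difference itself varied between tissues was tested in 1 fit of all 18 libraries. No member was called (0 of 10 in each of 3 contrasts), beside 0.0285% of 17537 genes for liver against colon, 0.0114% for lung against colon and 0.0228% for lung against liver. By unadjusted p below 0.05 there were 1, 0 and 0 of 10 members, beside 942, 564 and 1575 of the 17537 genes. Herpud1 had the smallest p, with a difference between the liver and colon effects of 0.41 (interval 0.08 to 0.73, adjusted p = 0.783), and of 0.319 without liver vehicle 1. For Dnajb9 the same contrast was 0.53 (interval −0.06 to 1.12), which leaves room for no difference and for more than 1 log2 unit, and it was 0.249 without liver vehicle 1.

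Replicate libraries of liver spread more widely for these genes than for the typical gene tested, with both treatments, which is a description with no test. The median within-group SD of the members on the log2 scale was 0.42 in liver vehicle and 0.31 in liver RECTAS libraries, beside 0.15 and 0.12 over all genes tested. In lung it was 0.06 and 0.10 beside 0.10 and 0.13, and in colon 0.15 and 0.12 beside 0.16 and 0.17. Summed over the 10 genes, liver vehicle libraries read 1227, 1763 and 2066 TPM and liver RECTAS libraries 1817, 2272 and 1695 TPM. The spread within each liver group was thus wider than the gap between the groups. The sums ran from 1131 to 1183 TPM (vehicle) and 1236 to 1355 TPM (RECTAS) in lung, and from 687 to 766 and 736 to 881 TPM in colon.

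The library behind each extreme was shared across members. Liver vehicle 1 was the lowest of all 6 liver libraries for 7 of 10 members, and liver RECTAS 3 for the other 3. Liver vehicle 3 and liver RECTAS 2 were each the highest of their group for 8. Hyou1 spanned most, with 25.0, 62.5 and 86.1 TPM over the vehicle libraries, a ratio of 3.44 between highest and lowest, and 71.2, 109 and 70.3 TPM with RECTAS. Manf read 68.4, 158 and 217 TPM with vehicle and 170.3, 249.8 and 147 TPM with RECTAS. Creld2 read 22.6, 38.2 and 60.8 TPM with vehicle and 40.3, 72.3 and 34.4 TPM with RECTAS. Hspa5, Manf and Creld2 ranked the 6 liver libraries in the same order (3 of 10 members), with vehicle 1 lowest and RECTAS 2 highest. Herpud1 and Dnajb9 ranked them differently, with all RECTAS libraries above all vehicle libraries. Hepatocyte marker sums were 110948, 125810 and 111489 TPM in the vehicle libraries and 127297, 131099 and 116359 TPM in the RECTAS libraries. The part of hepatocyte content in the spread of the members was not tested.

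**Figure D5:**
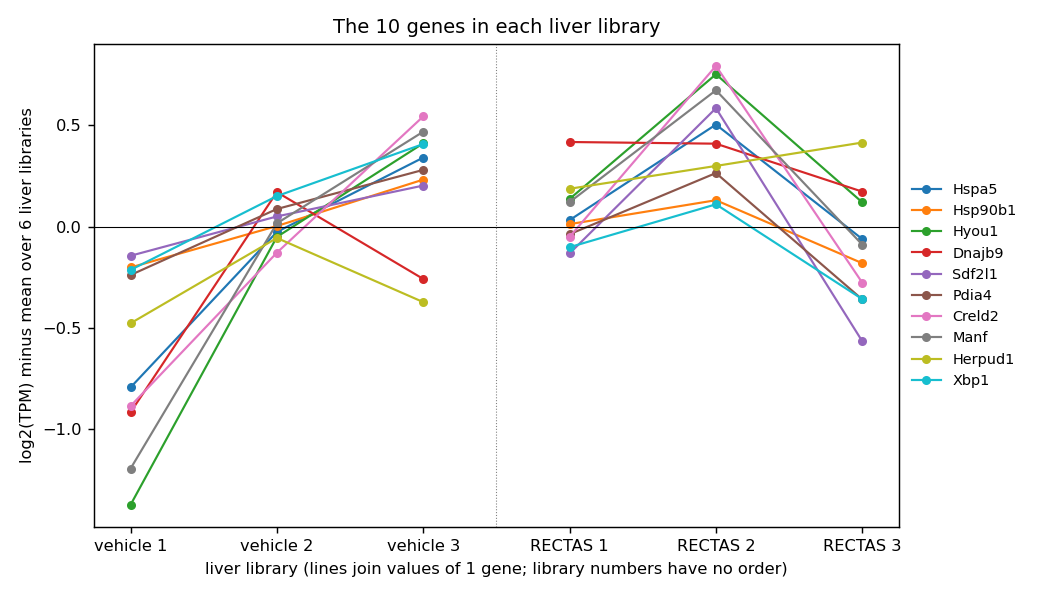
Each member in the 6 liver libraries, as log2(TPM) minus the member's mean over those libraries; lines join the values of 1 gene and the numbering of libraries carries no order. Most genes, Hyou1 among them, are lowest in vehicle 1 and peak in vehicle 3 and RECTAS 2. Herpud1, Dnajb9 and Hyou1 are above their means in all 3 RECTAS libraries. Herpud1 and Dnajb9 are also lowest in vehicle 1, but they are higher in each RECTAS library than in any vehicle library.

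The genes whose pattern over libraries was most like that of the members were ranked among all other genes at 5 TPM or more in each tissue. After centring within the 6 groups, the mean of the 10 members correlated over the 18 libraries most closely with Tmed9, a cargo receptor between ER and Golgi (Pearson r = 0.954), Dnajb11, a BiP co-chaperone (0.951), Lrrc59 (0.947) and Spcs2, a subunit of signal peptidase (0.945), out of 6793 genes ranked. Scfd1, Pgm3, Uso1 and Snrpf completed the first 8. Centring within the 3 tissues instead gave Dnajb11 (0.954), Spcs2 (0.948) and Tmed9 (0.941) as the first 3, and Uso1, Lrrc59, Scfd1 and Gfpt1 were also among the first 8. These correlations describe the libraries, of which those of liver have the widest spread, and all libraries share 1 way of normalization.

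The rest of the pathway was read from 6 lists of sensors, folding enzymes, co-chaperones, ERAD genes, translocation and transport genes, and PERK targets, 67 genes in all. Among the sensors, Ern1 (IRE1) averaged 9.65 ± 0.676, 12.0 ± 0.671 and 17.7 ± 3.08 TPM in vehicle colon, lung and liver, Atf6 13.2 ± 0.276, 17.9 ± 0.777 and 16.4 ± 2.35 TPM, and Eif2ak3 (PERK) 11.6 ± 2.35, 13.5 ± 1.15 and 5.56 ± 0.907 TPM. Creb3l3, a liver-enriched relative of ATF6, reached 137 ± 18.7 TPM in liver beside 7.03 ± 4.24 TPM in colon and 1.04 ± 1.24 TPM in lung. P4hb, the main protein disulfide isomerase, was the most abundant of the folding list, at 743 ± 71.7 TPM in liver and 328 ± 5.41 and 296 ± 10.9 TPM in colon and lung. Between liver and colon, 28 of the 67 genes were higher and 23 lower in liver, where 16.1% of all genes tested were higher and 63.8% lower. By list these were 7 higher and 2 lower of 12 folding genes, 9 and 3 of 14 ERAD genes, and 4 and 7 of 11 sensors.

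With RECTAS, 0 of the 64, 65 and 64 list genes tested in colon, lung and liver were called by limma. Their median differences were 0.05, 0.06 and 0.07 beside 0.02, 0.06 and −0.04 for all genes. In lung the gene with the smallest p was Atf3, a stress-induced factor downstream of ATF4, at 10.9 ± 2.57 TPM with RECTAS and 5.90 ± 1.26 TPM with vehicle, apart but not called (log2 difference 0.78, adjusted p = 0.273). Its list of PERK targets did not rise as a whole in lung. Of the 7 tested, 3 had a difference above 0, with a median of −0.03 beside 0.06 for all genes. Lung Ern1 stood at 14.4 ± 0.702 against 12.0 ± 0.671 TPM and Dnajb11 at 67.4 ± 0.587 against 60.3 ± 0.388 TPM. Atf3, Ern1 and Dnajb11 were each apart with RECTAS above, as 16.1% of lung genes were, and none was called.

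In liver the smallest p of the lists was that of Ubxn4, an ER protein that recruits the p97 ATPase. It averaged 43.8 ± 3.03 TPM with RECTAS and 30.5 ± 5.70 TPM with vehicle, apart (log2 difference 0.52, adjusted p = 0.292). Syvn1 (HRD1), the ubiquitin ligase that Herpud1 works with, averaged 47.4 ± 12.5 against 32.9 ± 5.98 TPM, overlapping. Pdia5 lay the other way and apart, at 40.7 ± 2.60 against 46.8 ± 2.38 TPM. In colon the smallest p of the lists was that of Creb3, at 35.2 ± 5.14 against 45.2 ± 3.70 TPM, with overlap. Atf4 itself had differences of 0.15 in colon and 0.18 in lung, neither called.

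An ERSE or ERSE-II match was present in the windows of 49 genes, 4 of them members. Of the 45 others, 8 were on the pathway lists: Calr, Canx, Derl3, Dnajb11, Dnajc3, Ero1b, Pdia6 and Syvn1. The files name Ero1b by its older symbol Ero1lb. The others that passed the filter numbered 24 in colon, 25 in lung and 22 in liver, and 0 were called with RECTAS in any tissue. Their median differences were 0.03, 0.07 and −0.02, beside 0.02, 0.06 and −0.04 for all genes tested. Within the list, the carrier of ERSE-II, Herpud1, and the 3 carriers of ERSE had liver differences of 0.60 and of 0.32 (Hspa5), −0.02 (Hsp90b1) and 0.30 (Creld2).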

How the data were processed

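Polyadenylated RNA of colon, lung and liver was extracted with TRIzol and made into TruSeq stranded mRNA libraries, per the labels' protocols. The authors deposited TPM per gene for each of the 18 libraries. The submitters' processing notes name HISAT2 2.2.0, RSEM 1.3.0 and GRCm38 and give no role for them. The annotation release is not given in the sources used here. Of 55401 identifiers, 55141 matched GENCODE M21, whose coordinates (GRCm38) were used. TPM keeps no read depth, and a rise of a few abundant genes lowers all others, so scaling alternatives were run. No 2 libraries were identical (0 pairs, highest Pearson correlation 0.995). Reads of Manf, Hsp90b1 and Pdia4 could be shared with annotated genes that overlap them on the same strand (for Manf, Rbm15b). Herpud1 overlaps an annotated gene, Gm15890, on the other strand only.

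The deposited TPM were tested as log2(TPM + 1), for genes at 1 TPM or more in 3 or more libraries of the fit, by limma 3.58.1 in R 4.3.3 (empirical Bayes with a mean-variance trend, two-sided), over all genes passing, with Benjamini-Hochberg adjustment at 0.05. Each tissue was fitted alone, tissues were compared on 9 vehicle libraries, and differences between effects used all 18. Groups are called apart where every library of one lies above every library of the other. Promoters and figures used Python 3.11.15. The procedure was tested on simulated data.

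The members and lists were chosen with earlier results of these data known. Named besides the members were the 2 genes of each list with the smallest p per tissue, of which some are printed, the 3 sensors and the most abundant gene of each list, likewise in part, and the 8 genes most alike in pattern. Some genes measured under this rule are not reported here. The list symbols Ero1a, Ero1b and Vimp were carried by the files as Ero1l, Ero1lb and Selenos, which were used, Hm13 was matched to no gene, and Ddit3 was taken from the 1 of its 2 identifiers above 0. As alternatives, a pseudocount of 0.1 or 5 TPM, a filter of 5 TPM or none, quantile normalization, median ratio scaling, rescaling without mitochondrial transcripts and the 20 highest genes, robust variance, the replicate number as a block, a threshold of 0.1, 1 fit of all libraries and leaving out each library were run.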

Additional observations from a re-analysis of the deposited data

How the results depend on the processing

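Of 1656 values recomputed under an alternative, 1556 were scored as unchanged, 43 changed sign, 25 lost a call, 22 gained one and 10 counts or medians moved. For a single gene, unchanged means the same direction and the same side of the threshold. For a median it means a shift smaller than the SD of the members' differences, and for a count a change within a set ratio. A median scored as unchanged could thus change sign. That of lung with RECTAS went from 0.0586 to −0.0283 under quantile normalization. The cause was not tested where none is named. The count of members called was 1 in liver RECTAS in 1 fit of all 18 libraries (Herpud1). Under median ratio scaling it was 10 in liver against colon, 3 in lung against colon and 10 in lung against liver, with medians of the members of 1.98, 0.16 and −1.82. Of all genes tested in liver against colon, that scaling called 12060 of 16356, in either direction. Leaving out 1 library gave 5 members in lung against colon and 5 to 8 in lung against liver. Median ratio scaling moved the median of all genes from −0.68 to −0.0086 (liver against colon), from 0.35 to −0.0049 (lung against colon) and from 1.10 to 0.04 (lung against liver).

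Replicate numbers are shared by the groups, and the labels do not say what they stand for. Same-numbered vehicle and RECTAS libraries correlated in their deviations at 0.35, −0.29 and 0.04 in colon. The values were 0.41, −0.07 and 0.32 in lung and 0.03, −0.01 and −0.02 in liver. In lung, vehicle 1 with RECTAS 3 gave −0.37 and vehicle 3 with RECTAS 1 gave −0.39. In colon, vehicle 2 with RECTAS 3 gave 0.45. Whether a number marks libraries handled together was not tested. With the replicate block 0 members were called with RECTAS in any tissue, Herpud1 in liver was 0.60 (adjusted p = 0.327), Hspa5 in lung against colon was no longer called (0.61, adjusted p = 0.056) and Dnajb9 in lung against liver was called (0.48, adjusted p = 0.0484).

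Apart from Dnajb9 between tissues, which was called with the other sign under median ratio scaling, sign changes concerned differences that were not called. In liver with RECTAS, Manf and Creld2 went from 0.467 and 0.303 to −0.00733 and −0.0507 without liver vehicle 1. In lung with RECTAS, Hsp90b1, Creld2, Manf and Xbp1 were −0.0584, −0.0349, −0.0218 and −0.064 under quantile normalization. Hsp90b1, Creld2 and Xbp1 were −0.0135, −0.0138 and −0.0398 under median ratio scaling and −0.0145, −0.0149 and −0.0409 when rescaled, and Pdia4 was 0.000112 with a pseudocount of 5 TPM. Hsp90b1 in liver was 0.027 under median ratio scaling. Dnajb9 was 0.443 and 0.704 in liver against colon (quantile normalization and median ratio scaling), −0.375 and −0.852 in lung against liver, and −0.148 in lung against colon under median ratio scaling. Leaving out 1 library gave, in colon, ranges of −0.046 to 0.246 for Dnajb9, −0.0326 to 0.118 for Hsp90b1 and −0.0693 to 0.146 for Sdf2l1. In lung they were −0.0558 to 0.038 for Pdia4, −0.0207 to 0.106 for Creld2, −0.046 to 0.111 for Hsp90b1 and −0.036 to 0.131 for Manf. In liver they were −0.0507 to 0.645 for Creld2, −0.00733 to 0.817 for Manf, −0.13 to 0.0865 for Hsp90b1, −0.371 to 0.185 for Sdf2l1 and −0.239 to 0.0702 for Pdia4. Between tissues they were −0.468 to 0.0541 for Dnajb9 in liver against colon, −0.364 to 0.331 for Creld2 and −0.598 to 0.226 for Manf in lung against liver, and −0.0587 to 0.234 for the lung against colon effect of Dnajb9.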
